A study of Mus musculus with 9 samples.

Results

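The 38 genes described here make up a set of lysosome and autophagy genes. They were listed by name from textbook knowledge of the pathway, with earlier results of these data known. The set holds 21 genes of the lysosome (peptidases, glycosidases, lipid-handling proteins and membrane proteins) and 15 genes of the autophagy machinery. It also holds Tfeb and Tfe3, transcription factors that act on both. The 38 genes were compared, out of 22180 genes with a usable probe set, between 3 groups of male C57BLKS/J mice aged 20 weeks. Each group had 3 Affymetrix arrays of kidney cortex RNA. The db/m mice carry 1 mutant copy of the leptin receptor gene and stay lean. The db/db mice carry the mutation on both copies, become obese and diabetic, and received saline for 12 weeks. The db/db+TSF mice have the db/db genotype and received Tang-shen Formula, abbreviated TSF, a traditional Chinese medicine made from herbs, at 2.4 g/kg/day by gavage for 12 weeks. The labels give 9 mice for each of the db/db groups and call the arrays biological replicates. For db/m they give neither a length of treatment nor a number of mice. All animals were male, and lean mice given TSF were not analysed here, so an action of TSF outside diabetes has no measurement. The study's stated purpose was to find therapeutic targets of the formula in diabetic kidney injury.

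Lysosomes are acidic organelles in which hydrolases break down proteins, sugars and lipids delivered by endocytosis or by autophagy. In autophagy a double membrane closes around cytoplasm: the ULK1 kinase and a PI3-kinase complex start the membrane, a ubiquitin-like conjugation system anchors ATG8 proteins (LC3 and GABARAP) in it, receptors such as p62 bring cargo, and the vesicle then fuses with a lysosome. Proximal tubule cells, the main cells of the cortex, take up filtered protein and carry many lysosomes. TFEB and TFE3 enter the nucleus when mTORC1, a nutrient-sensing kinase at the lysosome surface, is inactive. They bind a palindromic DNA element, the CLEAR element, near the start of many lysosomal genes.

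The promoters show which of the genes hold letters of that element. RefSeq promoter windows (GRCm38.p6, 250 bases before to 50 after a gene's start, 300 in all) were found for 29 of the 38 genes. The complete element, which is the core below with a G before it and a C after it, was in 0 of these 29 genes and in 0.37% of 27025 genes with windows. Its core TCACGTGA, searched on both strands, was in 5 of 29 genes (17.2%) against 1.12% of all genes, with 4 of 17 lysosomal genes and 1 of 10 autophagy genes. The shorter E-box CACGTG, which lies inside both longer motifs, was in 11 of 29 genes (37.9%) against 8.09% of all genes. A match is a run of letters and not a measured binding site. The stretches around the core are shown because only these 5 genes of the 29 held it. Capitals mark the core, and each stretch is given 5′ to 3′ on the gene's strand. The Ctsa window held another core 4 bases after the start, which is not printed.
Ctsa, chr2:164833740-164833772, plus strand: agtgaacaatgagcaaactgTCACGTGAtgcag
Ctsd, chr7:142387899-142387946, minus strand: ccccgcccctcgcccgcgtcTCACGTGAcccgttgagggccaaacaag
Gla, core nearer the start, chrX:134601173-134601220, minus strand: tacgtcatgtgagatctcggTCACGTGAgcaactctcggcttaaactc
Gla, core farther from the start, chrX:134601206-134601253, minus strand: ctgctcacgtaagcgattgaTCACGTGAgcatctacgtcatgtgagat
Mcoln1, chr8:3500453-3500500, plus strand: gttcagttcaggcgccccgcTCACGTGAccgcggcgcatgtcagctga
Atg3, chr16:45158737-45158784, plus strand: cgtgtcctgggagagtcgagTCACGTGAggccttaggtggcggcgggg

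The 250 bases before the start of Hexa and of Ctss are shown as well, because these were the members that passed the test of expression described next. Neither held any of the 3 motifs in this window, and none of the 5 genes with the core passed that test. Of all genes tested, 0% to 3.13% passed it, depending on the comparison. At such shares a count over 5 genes cannot show whether the core and the test are related.
Hexa, chr9:59539290-59539539, plus strand: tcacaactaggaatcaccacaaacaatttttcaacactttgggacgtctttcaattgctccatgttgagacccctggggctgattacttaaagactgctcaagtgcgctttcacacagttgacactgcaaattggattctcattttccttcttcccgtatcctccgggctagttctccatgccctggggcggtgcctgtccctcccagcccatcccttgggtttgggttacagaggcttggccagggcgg
Ctss, chr3:95526536-95526785, plus strand: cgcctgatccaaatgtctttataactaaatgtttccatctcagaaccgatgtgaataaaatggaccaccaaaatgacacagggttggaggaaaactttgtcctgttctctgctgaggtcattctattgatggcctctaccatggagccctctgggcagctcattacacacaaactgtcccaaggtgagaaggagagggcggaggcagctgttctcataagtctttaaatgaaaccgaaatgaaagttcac

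Levels are given as log2(intensity + 1) of a gene's brightest probe set with a single gene symbol, so a difference of 1 is a doubling, and levels of different genes are not comparable. Of the 38 genes, 37 had such a probe set and all 37 passed the filter on dim genes; Glb1, the beta-galactosidase, had only a probe set that carries several symbols and has no value here. Group means were tested with limma over 17740 genes, and a gene was called when its Benjamini-Hochberg adjusted p was below 0.05. Array medians lay between 10.3 and 11.2 intensity units. All 11 proximal tubule markers with a probe set were above the dim filter, with a summed intensity of 22100 to 24000 on every array. Of the 11, 0 passed the threshold in any of the comparisons, where 0% to 3.13% of all genes passed. In db/db+TSF against db/m 3 had an unadjusted limma p below 0.05 (27.3%, against 17.2% of all genes). Groups did not overlap for 4 in that comparison (36.4% against 22.1%), 1 higher and 3 lower, so the sum does not show single genes. Only 3 arrays stand behind each mean, and an exact permutation test of 3 arrays against 3 cannot give a p below 0.1.

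The set as a whole moved little. In db/db against db/m 1 of 37 members was called, Hexa, which was higher; over all genes the share called was 1.05%, with 0.592% higher and 0.462% lower. With db/db+TSF set against db/db, limma called 0 of 37 members and 0% of all genes. At an unadjusted limma p below 0.05 there were 2 of 37 members in that comparison, Hexa and Atg16l1 (5.41%), against 11.7% of all genes. In db/db+TSF against db/m 2 of 37 were called, Hexa higher and Ctss lower, against 3.13% of all genes, 1.22% higher and 1.92% lower. When all 6 db/db arrays were set against db/m, 1 member was called, Hexa, against 2.94% of all genes, 1.41% higher and 1.53% lower. These comparisons share arrays: both db/db groups are set against the same db/m arrays, so Hexa's calls are not separate pieces of evidence.

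The medians of lysosomal and autophagy genes differed by at most 0.07 on the log2 scale. The median log2 difference from db/m to db/db was 0.01 for the 20 lysosomal genes and -0.03 for the 15 autophagy genes, beside 0.01 for all genes tested. From db/db to db/db+TSF the medians were 0.01 and -0.01, beside -0.02 for all genes. From db/m to db/db+TSF they were -0.01 and -0.05, beside 0. With all db/db arrays set against db/m they were 0 and -0.07, beside 0. The lysosomal median was thus above the autophagy median by 0.04, 0.02, 0.04 and 0.07. The same gap taken on single arrays varied within groups by an SD of 0.063. That SD belongs to single arrays and is not the error of a gap between group means, and the gaps were not tested. The last gap ran from 0.02 to 0.13 with an array left out. The sign of the lysosomal median was not stable: with the arrays shifted to one median it was -0.05 in db/db+TSF against db/db. That shift moves every gene of an array by the same amount, and the autophagy median went from -0.01 to -0.07 with it.

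The intervals around single differences say how large a change could have gone unseen. The 95% interval of the difference lay within 1.5-fold in both directions for 35 of 37 members in db/db against db/m (94.6%, against 85.7% of all genes), for 36 in db/db+TSF against db/db (97.3% against 88%) and for 34 in db/db+TSF against db/m (91.9% against 83.9%). An unadjusted p below 0.05 was reached by 1 member in db/db against db/m (2.7%, against 13.9% of all genes) and by 9 in db/db+TSF against db/m (24.3% against 17.2%). Groups that did not overlap were found for 6 members in db/db against db/m (16.2%, against 18.6% of all genes) and for 10 in db/db+TSF against db/db (27% against 20.1%). In db/db+TSF against db/m there were 17 (45.9% against 22.1%), 8 of them higher and 9 lower. Of those 17, only Hexa and Ctss passed the threshold. With all db/db arrays set against db/m there were 5 (13.5% against 8.55%).

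**Figure D1:**
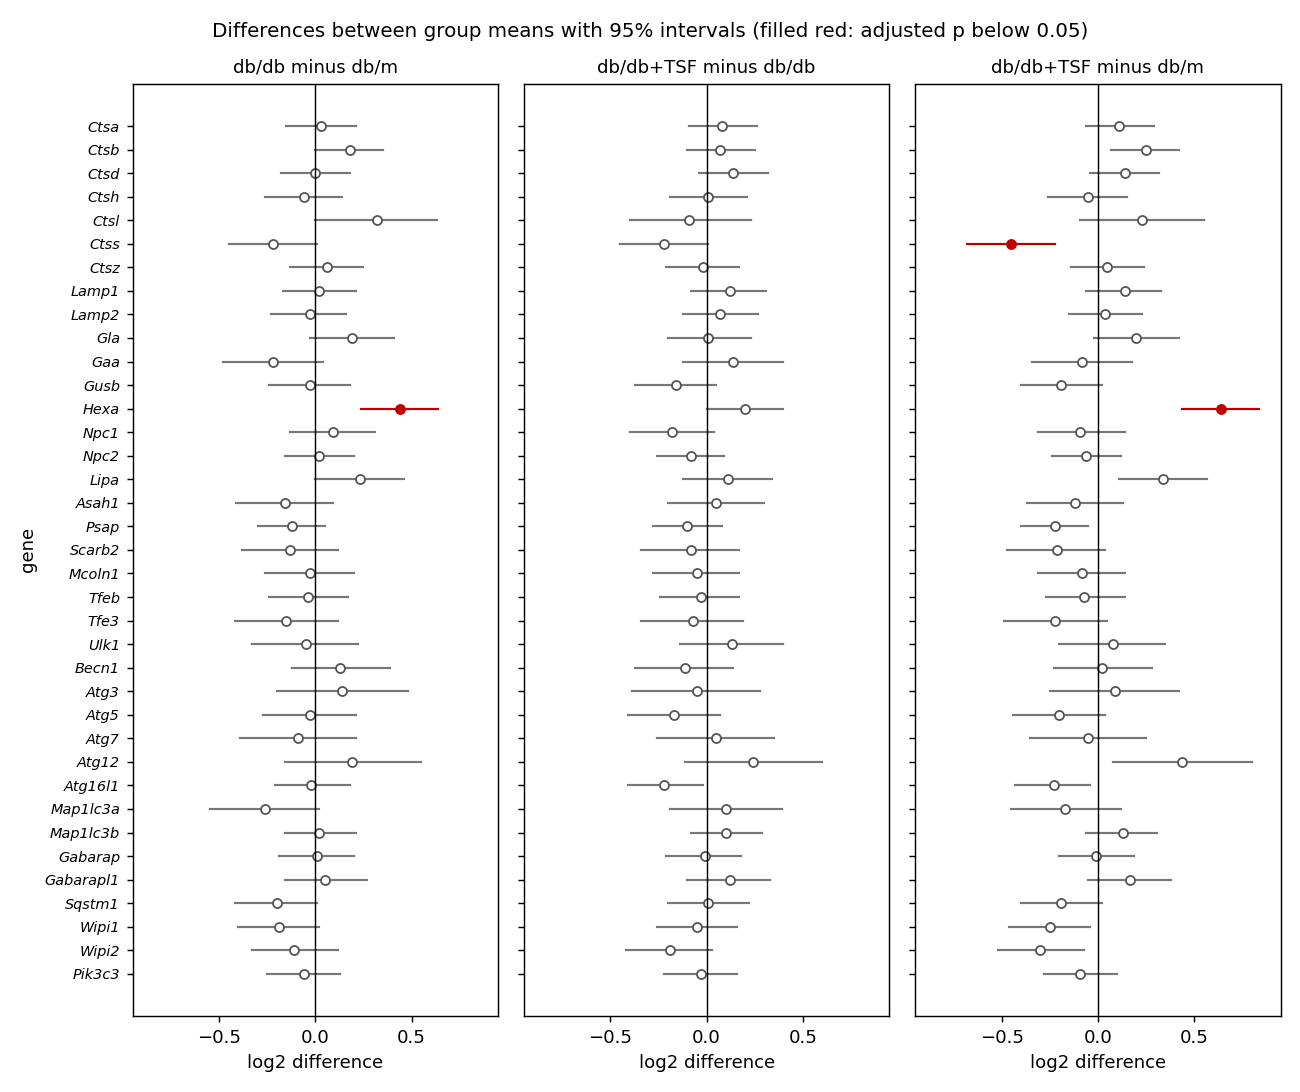
Differences between group means on the log2 scale for 37 genes, with 95% intervals from limma, for db/db minus db/m, db/db+TSF minus db/db and db/db+TSF minus db/m; filled red points have an adjusted p below 0.05. Hexa lies to the right of 0 by 0.44 in the first panel and 0.64 in the last, Ctss to the left by -0.45 in the last, and no gene is filled in the middle panel.

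Hexa, the alpha subunit of beta-hexosaminidase, which with the activator protein of Gm2a degrades GM2 ganglioside, had the widest difference of the set. The db/m arrays read 8.20, 8.16 and 8.29, the db/db arrays 8.76, 8.54 and 8.66, and the db/db+TSF arrays 8.92, 8.84 and 8.81. The 3 groups did not overlap: every db/db array was above every db/m array, and every db/db+TSF array was above every db/db array. Hexa rose by 0.44 (SE 0.09, 95% interval 0.24 to 0.64, 1.36-fold) in db/db against db/m, with a limma adjusted p of 0.0483. It was higher by 0.64 (SE 0.09, 0.44 to 0.84, 1.56-fold) in db/db+TSF against db/m, with an adjusted p of 0.0047. The step from db/db to db/db+TSF was 0.20 (SE 0.09, 0 to 0.40), with an unadjusted p of 0.0466 and an adjusted p of 0.42, so it did not pass. In bulk tissue, more cells that express a gene and more RNA per cell cannot be told apart.

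The call of Hexa in db/db against db/m lay at the threshold and was lost when any of the 9 arrays was left out, with adjusted p from 0.0621 (without db/db replicate 2) to 0.163 (without db/db replicate 1). The call in db/db+TSF against db/m passed under each of the 17 alternatives, with a highest adjusted p of 0.0218 among the arrays left out (without db/m replicate 1). Gm2a, a gene outside the set that works with Hexa, read 11 to 11.13 on the 9 arrays and had a limma adjusted p of 0.945 in db/db against db/m.

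**Figure D2:**
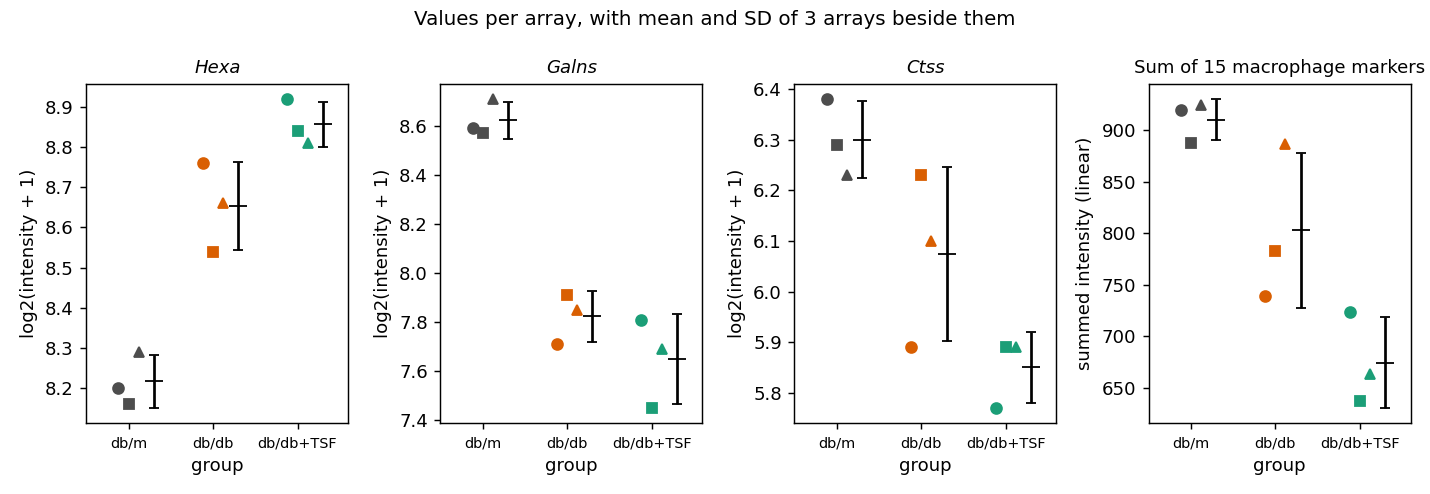
Values per array for Hexa, Galns and Ctss as log2(intensity + 1), and the summed linear intensity of 15 macrophage markers, in db/m, db/db and db/db+TSF; circles, squares and triangles are replicates 1, 2 and 3, and the bars beside them are the mean and SD of 3 arrays. The vertical axes do not start at 0. Hexa lies at 8.16 to 8.29 in db/m and at 8.81 to 8.92 in db/db+TSF, while the lowest arrays of Galns, Ctss and the marker sum are db/db+TSF arrays.

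The other glycosidases with a value were Gla, Gaa and Gusb, and none passed the threshold, which 0% to 3.13% of all genes passed. Gla, the alpha-galactosidase that clears globotriaosylceramide, was 5.51, 5.52 and 5.74 in db/m, 5.83, 5.82 and 5.69 in db/db, and 5.80, 5.89 and 5.69 in db/db+TSF. Its difference from db/m was 0.19 in db/db (limma adjusted p = 0.427) and 0.20 in db/db+TSF (adjusted p = 0.33), with 1 array of each db/db group inside the db/m range. Gaa, which breaks down lysosomal glycogen, spread most in db/db (8.57, 8.75 and 8.35) against 8.70, 8.68 and 8.95 in db/m, a difference of -0.22 (adjusted p = 0.445). Gusb, the beta-glucuronidase, was 6.20, 5.93 and 6.13 in db/db+TSF and 6.36, 6.25 and 6.23 in db/m. These Gusb groups did not overlap, but their difference of -0.19 had an adjusted p of 0.337.

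Among the 7 cathepsins, which are lysosomal peptidases, 1 was called: Ctss fell in db/db+TSF against db/m, where 1.92% of all genes fell. Cathepsin S is the peptidase of antigen-presenting cells that trims the invariant chain of MHC class II. The db/m arrays read 6.38, 6.29 and 6.23, the db/db arrays 5.89, 6.23 and 6.10, and the db/db+TSF arrays 5.77, 5.89 and 5.89. All 3 db/db+TSF arrays were below all 3 db/m arrays, and db/db lay between, with its replicate 1 at the level of the db/db+TSF arrays. Ctss fell by 0.45 on the log2 scale (SE 0.10, 95% interval -0.68 to -0.22, 1.36-fold) with a limma adjusted p of 0.0441. The difference was -0.22 from db/m to db/db and -0.22 again from db/db to db/db+TSF, with adjusted p of 0.373 and 0.434 respectively.

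The Ctss call was lost without any of the 3 db/m arrays (adjusted p 0.136, 0.0909 and 0.062), any of the 3 db/db+TSF arrays (0.12, 0.109 and 0.116) or db/db replicate 3 (0.0564), with quantile normalization (0.0631) and with the replicate number as a block (0.0719). Several markers of macrophages were also lower in db/db+TSF than in db/m. Of 15 macrophage markers, none of them under the dim filter, 11 were below 0 and 4 above 0 in db/db+TSF against db/m, and 5 fell past the threshold (Csf1r by 0.83, Adgre1 by 0.56, Tyrobp by 0.56, Fcer1g by 0.47 and Cd68 by 0.42), where 1.92% of all genes fell. In db/db against db/m 0 of 15 passed, where 1.05% of all genes did. There 11 were also below 0 and 4 above 0. Of the 15, 4 had an unadjusted limma p below 0.05 (26.7%, against 13.9% of all genes). Set directly against the db/db arrays, the db/db+TSF arrays gave no call among these markers, where 0% of all genes were called. By that direct contrast 11 were below 0 and 4 above 0, and 5 had an unadjusted limma p below 0.05 (33.3% against 11.7%). The count of 5 past the threshold in db/db+TSF against db/m changed with an array left out. It was 0 without db/m replicate 1 or 2 or db/db+TSF replicate 3. It was 1 without db/m replicate 3 or db/db+TSF replicate 2, and 3 without db/db replicate 2 or db/db+TSF replicate 1. Over all genes, calls in db/db+TSF against db/m also dropped, from 556 to 220, 370 and 415 without db/m replicates 1, 2 and 3. Without db/db+TSF replicates 1, 2 and 3 they were 392, 225 and 213. In db/m the summed intensity of the 15 macrophage markers was 887 to 924, in db/db it was 739 to 886, and in db/db+TSF it was 637 to 723. The db/m and db/db+TSF ranges of this sum were apart in the same order as those of Ctss. Within groups the arrays did not keep the same order. In db/db, Ctss was highest in replicate 2 and the sum in replicate 3, which also held the highest sum of neutrophil markers, 579. In db/m, Ctss was highest in replicate 1 and the sum in replicate 3. The part of macrophage number in the Ctss difference was not tested.

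Of the other 6 cathepsins, 5 had higher means in db/db+TSF than in db/m and none passed the threshold, which 3.13% of all genes passed. Ctsb, an abundant cysteine protease, was 10.92, 10.94 and 10.96 in db/m, 11.08, 11.15 and 11.12 in db/db, and 11.23, 11.21 and 11.12 in db/db+TSF. Its groups were narrow and both db/db groups lay above all db/m arrays. The difference was 0.18 (95% interval 0 to 0.35, limma adjusted p = 0.362) in db/db and 0.25 (0.07 to 0.42, adjusted p = 0.137) in db/db+TSF against db/m. Ctsb passed in the latter comparison with a pseudocount of 16 (adjusted p = 0.0278) and with an intensity trend and robust variance (0.0284). Ctsd, the main aspartic protease of the lysosome, was 10.80, 10.78 and 10.88 in db/m, 10.85, 10.81 and 10.80 in db/db and 11, 10.93 and 10.96 in db/db+TSF. Only the db/db+TSF arrays stood apart, by 0.14 from db/db (adjusted p = 0.515). Ctsa, the carboxypeptidase that protects beta-galactosidase and neuraminidase, differed by 0.11 in db/db+TSF against db/m (adjusted p = 0.521).

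Ctsl, a cysteine protease of the papain family, read 10.70, 10.89 and 10.50 in db/m, 10.77, 10.92 and 11.33 in db/db, and 10.96, 10.94 and 10.87 in db/db+TSF. Its highest value was that of db/db replicate 3, and the difference of 0.32 in db/db against db/m (limma adjusted p = 0.36) was 0.15 without that array (adjusted p = 0.694). In db/db+TSF against db/db its sign turned from -0.09 to 0.08 without it. That array also held the highest summed intensity of 11 neutrophil markers, 579 against 92.2 to 105 on the other 8 arrays. The part of that difference in the Ctsl value was not tested. Ctsh, an aminopeptidase, and Ctsz, a carboxypeptidase, differed by at most 0.06 in size between any of the groups.

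**Figure D3:**
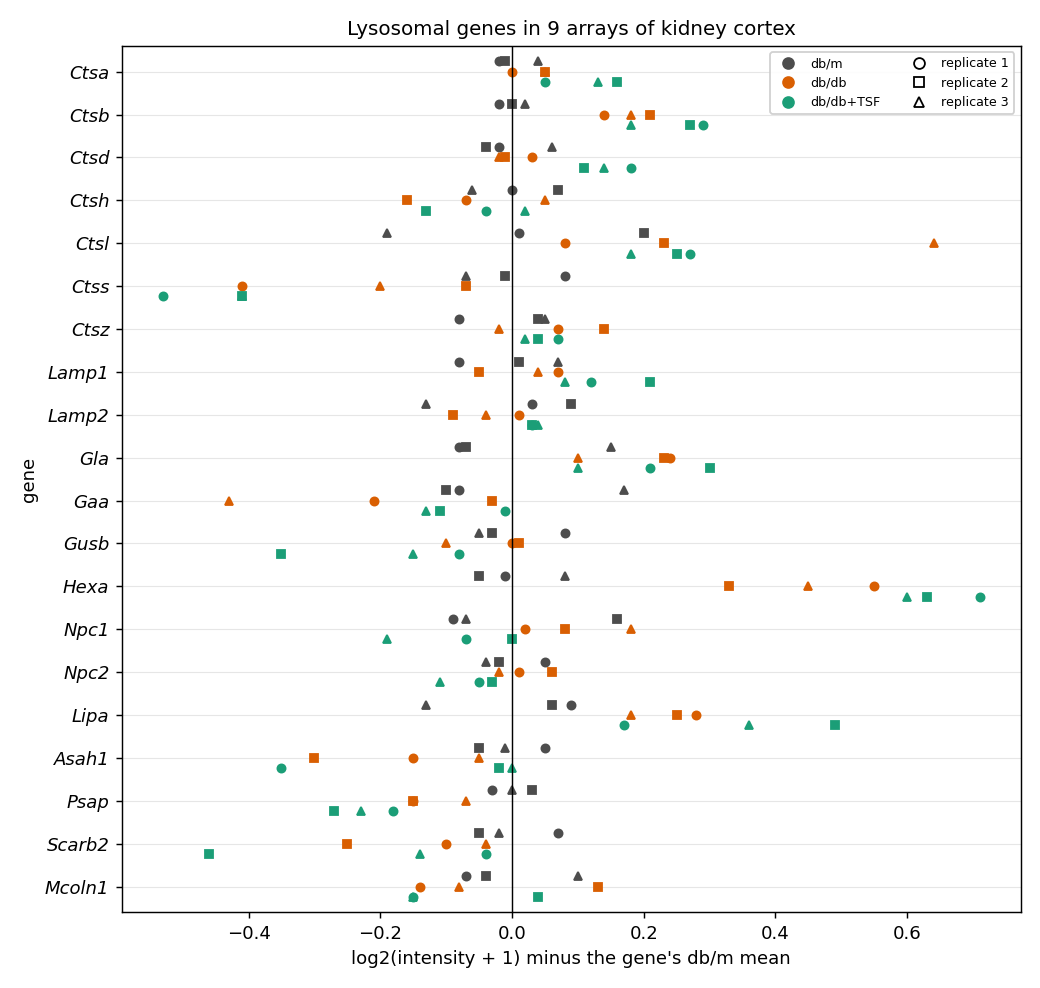
Values of 20 lysosomal genes on each of 9 arrays, as log2(intensity + 1) minus the gene's db/m mean, in db/m (grey), db/db (orange) and db/db+TSF (green); the symbol shape gives the replicate, and symbols with the same value overlap. Hexa lies farthest to the right, all of its db/db and db/db+TSF arrays above its db/m arrays, Ctss farthest to the left, and Ctsl has 1 distant db/db array, replicate 3.

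Of the 5 proteins that handle lipids in the lysosome, none passed, where 0% to 3.13% of all genes did. Lipa and Psap came nearest, in opposite directions. Lipa, the acid lipase that frees cholesterol and fatty acids from lipoprotein esters, was 10.36, 10.33 and 10.14 in db/m, 10.55, 10.52 and 10.45 in db/db and 10.44, 10.76 and 10.63 in db/db+TSF. Every array of either db/db group was above every db/m array. The difference was 0.23 in db/db (limma adjusted p = 0.36) and 0.34 in db/db+TSF (95% interval 0.11 to 0.57, adjusted p = 0.12). Psap, the precursor of the saposins that activate sphingolipid hydrolases, was 11.42, 11.48 and 11.45 in db/m, 11.30, 11.30 and 11.38 in db/db and 11.27, 11.18 and 11.22 in db/db+TSF. The 3 groups descended without overlap. Psap differed by -0.22 in db/db+TSF against db/m (-0.40 to -0.05, adjusted p = 0.18), and it passed with a pseudocount of 16 (0.0417) and with an intensity trend and robust variance (0.0405).

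Asah1, the acid ceramidase, was 8.05, 7.95 and 7.99 in db/m and 7.85, 7.70 and 7.95 in db/db, a difference of -0.16 (limma adjusted p = 0.56), and its db/db+TSF arrays spread from 7.65 to 8. Npc1 and Npc2, which hand cholesterol out of the lysosome, differed from db/db to db/db+TSF by -0.18 (adjusted p = 0.507) and -0.08 (adjusted p = 0.713), with groups that did not overlap. Npc1 had another, dimmer probe set that differed by 0.05 in that comparison, so its probe sets did not give the same sign.

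The 4 membrane proteins of the lysosome gave no call, where 0% to 3.13% of all genes were called. Lamp1, a heavily glycosylated protein that lines the organelle, was 10.96, 11.05 and 11.11 in db/m, 11.11, 10.99 and 11.08 in db/db and 11.16, 11.25 and 11.12 in db/db+TSF. The db/db+TSF arrays were the 3 highest, by 0.14 over db/m (limma adjusted p = 0.476). Lamp2, its partner needed for fusion with autophagosomes, differed by 0.07 in db/db+TSF against db/db (95% interval -0.12 to 0.27, adjusted p = 0.777). Scarb2, the receptor that carries glucocerebrosidase to lysosomes, differed by -0.21 in db/db+TSF against db/m (adjusted p = 0.387), with its db/db+TSF replicate 2 at 6.04 below the other 8 arrays (6.25 to 6.57). Mcoln1, the calcium channel that signals to TFEB, differed by -0.08 in the same comparison (adjusted p = 0.733).

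The regulators themselves did not pass. Tfeb read 3.53, 3.52 and 3.59 in db/m, 3.43, 3.68 and 3.43 in db/db and 3.52, 3.48 and 3.44 in db/db+TSF, values near the array medians of 3.50 to 3.61. Its difference was -0.04 in db/db (95% interval -0.24 to 0.17, limma adjusted p = 0.895) and -0.07 in db/db+TSF (-0.27 to 0.14, adjusted p = 0.761) against db/m. Tfe3 was 7.08, 7.06 and 7.53 in db/m against 7.09, 7.06 and 7.08 in db/db and 7.06, 6.98 and 6.96 in db/db+TSF. Its db/m replicate 3 was above the other 8 arrays, and without it the difference of db/db from db/m turned from -0.15 to 0.01. These arrays measure RNA, and where the proteins were in the cell was not measured.

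Among the 15 autophagy genes 0 were called in any of the 4 comparisons by limma, where 0% to 3.13% of all genes were called. In db/db+TSF against db/m 4 had an unadjusted limma p below 0.05 (26.7%, against 17.2% of all genes). Groups did not overlap for 7 in that comparison (46.7% against 22.1%), 2 higher and 5 lower. The initiation group holds Ulk1, the kinase that starts the process, Becn1 and Pik3c3, subunits of the PI3-kinase complex, and Wipi1 and Wipi2, readers of its lipid product. Wipi2 was 8.05, 8.21 and 8.32 in db/m, 8.13, 8.20 and 7.93 in db/db and 7.92, 7.90 and 7.87 in db/db+TSF. All 3 db/db+TSF arrays lay below the other 6, with a difference from db/m of -0.30 (95% interval -0.52 to -0.07, limma adjusted p = 0.158) and from db/db of -0.19 (adjusted p = 0.483). Wipi1 was 7.17, 7.30 and 7.32 in db/m, 6.98, 7 and 7.22 in db/db and 7.06, 7.02 and 6.96 in db/db+TSF. It differed by -0.25 in db/db+TSF against db/m (adjusted p = 0.211). Ulk1, Becn1 and Pik3c3 differed from db/m by 0.08, 0.02 and -0.09 in db/db+TSF, with adjusted p of 0.803, 0.946 and 0.662.

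The conjugation genes were mixed in direction. Atg12, the ubiquitin-like protein joined to ATG5, was 7.52, 7.42 and 7.02 in db/m, 7.78, 7.44 and 7.31 in db/db and 7.6, 7.67 and 7.99 in db/db+TSF. The db/db+TSF arrays were above all db/m arrays and overlapped db/db, and the difference from db/m of 0.44 (95% interval 0.08 to 0.80) had a limma adjusted p of 0.193. Without db/m replicate 3 it was 0.29 (adjusted p = 0.401). Atg16l1, which binds that conjugate and sets where LC3 is attached, was 6.39, 6.42 and 6.52 in db/m, 6.45, 6.43 and 6.41 in db/db and 6.30, 6.10 and 6.23 in db/db+TSF. Its db/db+TSF arrays were the 3 lowest, by -0.22 against db/db (unadjusted p = 0.0304, adjusted p = 0.386) and -0.23 against db/m (adjusted p = 0.199). Atg5, the acceptor of ATG12, differed by -0.20 in db/db+TSF against db/m (adjusted p = 0.392). The enzymes Atg7 and Atg3, the E1-like and E2-like steps, differed from db/m by -0.05 and 0.09 in db/db+TSF (adjusted p = 0.901 and 0.825).

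The ATG8 proteins and the cargo receptor p62 were close between groups. Map1lc3b, the LC3 form most used as a marker of autophagosomes, was 10.45, 10.57 and 10.51 in db/m, 10.51, 10.53 and 10.56 in db/db and 10.55, 10.68 and 10.68 in db/db+TSF. Its difference of 0.02 in db/db against db/m had a 95% interval of -0.16 to 0.21 (limma adjusted p = 0.921). Sqstm1, which encodes p62, was 10.02, 10.13 and 10.30 in db/m, 9.92, 9.94 and 9.98 in db/db and 9.99, 10.01 and 9.87 in db/db+TSF. All 6 arrays of db/db mice were below the 3 db/m arrays, by -0.20 in db/db (-0.42 to 0.01, adjusted p = 0.375) and -0.19 in db/db+TSF (adjusted p = 0.344). From db/db to db/db+TSF Sqstm1 differed by 0.01 (-0.20 to 0.22). Gabarapl1 was tight in db/db+TSF at 11.10, 11.12 and 11.09, against 10.76 to 11.05 in db/m, a difference of 0.17 (adjusted p = 0.425). Gabarap differed by at most 0.01 in size between groups, while its other, dimmer probe set differed by 0.17 in db/db+TSF against db/m. Map1lc3a differed by -0.26 in db/db against db/m (adjusted p = 0.398).

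A single lean array carried much of the spread of the autophagy genes. The db/m replicate 3 was the highest or the lowest of the 9 arrays for 11 of 15 autophagy genes (73.3%), 8 times highest and 3 times lowest, against 4 of 20 lysosomal genes (20%) and 37.9% of all genes tested. It was low for Atg3 (7.97, others 8.36 to 8.64), Becn1 (6.53, others 6.70 to 6.97) and Atg12 (7.02, others 7.31 to 7.99). It was high for Atg7 (7.44, others 6.87 to 7.22) and Map1lc3a (7.78, others 7.12 to 7.40), among others. Without it the autophagy median was 0.01 from db/m to db/db and -0.04 from db/m to db/db+TSF, with 0 autophagy genes called, and the difference of Map1lc3a in db/db against db/m was -0.12. The labels set this sample apart from the other db/m samples only by its replicate number.

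**Figure D4:**
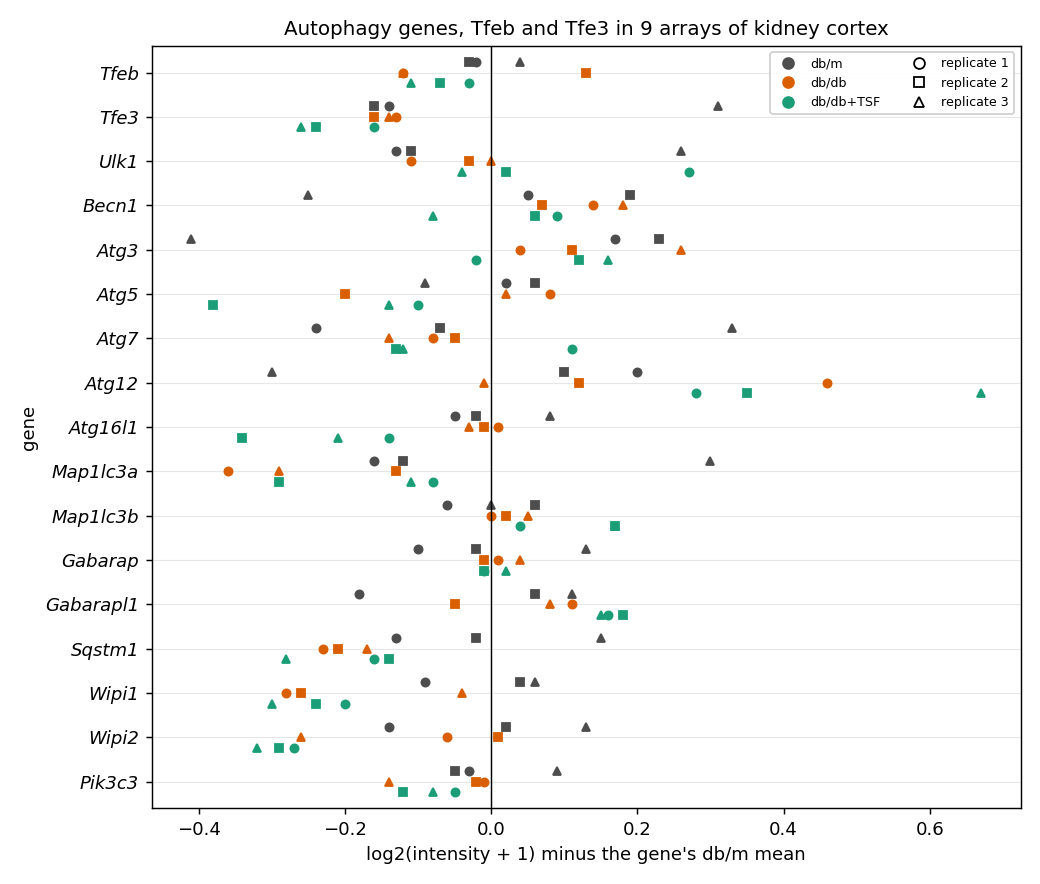
Values of Tfeb, Tfe3 and 15 autophagy genes on each of 9 arrays, as log2(intensity + 1) minus the gene's db/m mean, with groups by colour and replicates by symbol shape. The grey triangle, db/m replicate 3, is the rightmost or the leftmost symbol for 11 of the 15 autophagy genes, and the green db/db+TSF symbols of Wipi2 and Atg16l1 lie to the left of all others.

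Other genes of the pathway were taken from lists of textbook members outside the 38, also chosen with earlier results known. Those that passed in at least 1 comparison are given list by list. Of 29 other lysosomal hydrolases tested, 1 fell in db/db against db/m, where 0.462% of all genes fell, and 3 fell in db/db+TSF against db/m, where 1.92% of all genes fell. None of the 29 rose, and their medians were 0.01 and -0.05. Galns, the sulfatase that removes sulfate from keratan and chondroitin sulfate, was 8.59, 8.57 and 8.71 in db/m, 7.71, 7.91 and 7.85 in db/db and 7.81, 7.45 and 7.69 in db/db+TSF. Every array of a db/db mouse was below every db/m array, with a wide gap. Galns fell by 0.80 (SE 0.11, 1.74-fold, limma adjusted p = 0.00726) in db/db and by 0.97 (SE 0.11, 1.96-fold, adjusted p = 0.00122) in db/db+TSF against db/m. It passed in both comparisons under each of the 17 alternatives. From db/db to db/db+TSF it differed by -0.17 (adjusted p = 0.553).

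Sgsh, the sulfamidase of heparan sulfate breakdown, was 7, 6.93 and 7.15 in db/m, 6.82, 6.92 and 6.81 in db/db and 6.66, 6.56 and 6.51 in db/db+TSF. It fell by 0.45 in db/db+TSF against db/m (SE 0.09, limma adjusted p = 0.0273). Leaving out db/m replicate 1 or 3 ended that call (0.0718 and 0.0568), as did db/db+TSF replicate 2 or 3 (0.0943 and 0.11). Neu1, the sialidase held in a complex with cathepsin A, was 10.05, 10.28 and 10.18 in db/m, 9.91, 10.14 and 10.04 in db/db and 9.69, 9.79 and 9.73 in db/db+TSF. It fell by 0.43 in the same comparison (SE 0.10, adjusted p = 0.0379). That call was lost without any of the db/m arrays, any of the db/db+TSF arrays or db/db replicate 3, with adjusted p from 0.0506 to 0.123. Both genes were lowest in db/db+TSF without overlap, and neither passed against db/db (adjusted p 0.318 and 0.317).

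Of 10 other autophagy receptors tested, 2 rose in db/db+TSF against db/m and 0 fell, where 1.22% of all genes rose and 1.92% fell. With all db/db arrays set against db/m 1 rose (Ncoa4, by 0.51) and 0 fell, where 1.41% and 1.53% of all genes did. Ncoa4, the receptor that takes ferritin to lysosomes, was 5.96, 6.08 and 5.86 in db/m, 6.36, 6.21 and 6.62 in db/db and 6.65, 6.44 and 6.59 in db/db+TSF. It rose by 0.59 in db/db+TSF against db/m (SE 0.12, limma adjusted p = 0.0239). That call ended without db/m replicate 1 or 3 (0.0752 and 0.065) or db/db+TSF replicate 1 or 3 (0.0721 and 0.0881). Ncoa4 differed by 0.43 from db/m to db/db and by 0.16 from db/db to db/db+TSF, and neither step passed. Retreg1, a receptor for autophagy of the endoplasmic reticulum, was 9.91, 10.21 and 9.75 in db/m, 10.22, 10.17 and 10.23 in db/db and 10.44, 10.36 and 10.63 in db/db+TSF. It rose by 0.52 in db/db+TSF against db/m (SE 0.12, adjusted p = 0.0444), and of the 9 arrays only leaving out db/m replicate 2 kept the call. The other 8 gave adjusted p from 0.0564 to 0.165. Retreg1 differed by 0.25 from db/m to db/db and by 0.27 from db/db to db/db+TSF, and neither step passed.

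Among 24 genes of mTORC1 and nutrient sensing, 0 passed in the pairwise comparisons, where 0% to 3.13% of all genes passed. With all 6 db/db arrays set against db/m 1 of the 24 fell, where 1.53% of all genes fell: Mtor, the kinase itself. It was 9.46, 9.50 and 9.53 in db/m, 9.01, 9.10 and 8.88 in db/db and 9.20, 8.83 and 9.13 in db/db+TSF, a difference of -0.47 (SE 0.10, limma adjusted p = 0.0241). No db/db array reached the db/m range. The call was lost without any of the 3 db/m arrays (0.0753, 0.0745 and 0.0772) or db/db replicate 1 (0.0511). Of 5 other regulators, 1 rose in db/db+TSF against db/m (Foxo3), where 1.22% of all genes rose. With all db/db arrays set against db/m 1 rose (Mitf), where 1.41% of all genes rose. Foxo3, a forkhead factor that acts on autophagy genes, was 6.53, 6.76 and 6.48 in db/m, 6.57, 6.97 and 7.07 in db/db and 7.32, 7.20 and 7.11 in db/db+TSF. It rose by 0.62 in db/db+TSF against db/m (SE 0.14, adjusted p = 0.0345), a call lost without db/m replicate 1 or 3 or any db/db+TSF array (0.0793 to 0.111). Foxo3 differed by 0.28 from db/m to db/db and by 0.34 from db/db to db/db+TSF, and neither step passed. Mitf, a relative of Tfeb, was 6.42, 6.37 and 6.13 in db/m, 6.64, 6.86 and 6.92 in db/db and 6.73, 6.63 and 6.63 in db/db+TSF. It rose with all db/db arrays set against db/m, by 0.43 (SE 0.09, adjusted p = 0.0357), and of the 9 arrays only leaving out db/db replicate 1 kept the call (0.0613 to 0.112 for the others).

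**Figure D5:**
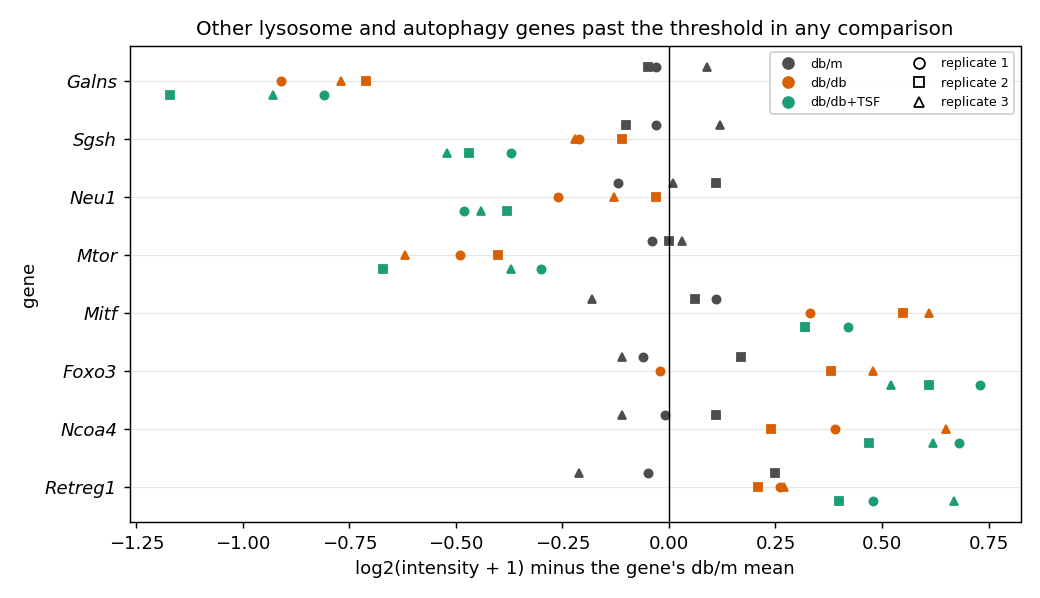
Values of 8 other lysosome and autophagy genes, those of the textbook lists that passed the threshold in any comparison, on each of 9 arrays as log2(intensity + 1) minus the gene's db/m mean; colours give groups and symbol shapes replicates. Galns, Sgsh, Neu1 and Mtor lie to the left of 0 in db/db+TSF, and Mitf, Foxo3, Ncoa4 and Retreg1 to the right.

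The remaining lists gave no call in any comparison, where 0% to 3.13% of all genes were called. They held 17 other lysosomal membrane proteins, 18 genes of delivery to the lysosome and 15 ubiquitous subunits of the proton pump that acidifies it. The last list held 30 other genes of the autophagy machinery. The median differences of these lists in db/db+TSF against db/m were -0.04, -0.04, 0.04 and -0.08, in that order, beside 0 for all genes. Of them 6, 2, 2 and 4 had an unadjusted limma p below 0.05 (35.3%, 11.1%, 13.3% and 13.3%, against 17.2% of all genes). In that comparison 21 of the 30 other autophagy genes were below 0, as were 9 of the 15 members, beside 8877 of 17740 genes tested.

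Markers of other cells also differed between the groups. Of 9 lymphocyte markers with a probe set, 1 fell in db/db (Cd3e) and 2 in db/db+TSF against db/m (Cd3e and Cd3g), where 0.462% and 1.92% of all genes fell. Their summed intensity in db/m was 151 to 190, in db/db 105 to 116 and in db/db+TSF 96 to 126. Cd3e in db/db was lost without db/m replicate 1 or db/db replicate 1 or 3 (0.0694 to 0.0951), and in db/db+TSF only leaving out db/db+TSF replicate 1 kept its call (0.0559 to 0.169 for the other 8 arrays). Cd3g was lost without db/m replicate 1 or 2 or db/db+TSF replicate 2 or 3 (0.0576 to 0.0707). Of 7 markers of the loop and distal tubule, 1 rose in db/db (Calb1) and 2 in db/db+TSF (Calb1 and Pvalb), where 0.592% and 1.22% of all genes rose, with sums of 7420 to 7820 in db/m and 8880 to 10000 in the db/db groups. Calb1 in db/db kept its call without db/m replicate 2 or db/db replicate 2 and lost it without any of the other 7 arrays (0.0601 to 0.155), while in db/db+TSF it passed under each of the 17 alternatives. Pvalb was lost without db/m replicate 1 or 2 or any db/db+TSF array (0.0579 to 0.0767).

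Markers of the collecting duct, intercalated cells, podocytes and endothelium gave no call in any comparison, where 0% to 3.13% of all genes were called. The sum of 7 intercalated cell markers was 2200 to 2620 in db/m and 2770 to 3370 in the db/db groups, without overlap. All 7 were above 0 in db/db+TSF against db/m, 5 of them with an unadjusted limma p below 0.05 (71.4%, against 17.2% of all genes). The sum of 5 podocyte markers was 653 to 754 in db/m and 772 to 885 in the db/db groups, also without overlap. The collecting duct sum was 2280 to 2810 in db/m and 2620 to 2980 in the db/db groups, and the endothelial sum was 2240 to 2360 and 2260 to 2430. The part of these differences in the values of lysosome and autophagy genes was not tested.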

How the data were processed

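RNA of 9 kidney cortex samples was measured on Affymetrix arrays, 3 per group. The deposited intensity values are linear, 1 per probe set and array, and, per the submitters' processing notes, were made with Affymetrix Expression Console and Transcriptome Analysis Console; how background was corrected and how arrays were normalized is not stated in any source used here. Of 41345 probe sets, 190 were controls, 23521 had 1 gene symbol in the platform annotation, 1814 had several and 15820 were not named in it. No detection calls were used, so a dim value cannot be told from background.

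Intensities were taken as log2(value + 1), which understates changes of dim genes. The brightest probe set with 1 symbol stood for its gene, and genes with a mean under the 30th percentile of probe sets (2.65) were left out, which left 17740 of 22180 genes. All 9 arrays were fitted with limma version 3.58.1 (R version 4.3.3), with 1 mean per group, eBayes and Benjamini-Hochberg adjustment over all genes tested. All p-values of single genes come from limma. The test was tested on simulated data first. SDs of a group measure the spread between its 3 arrays. Intervals and p-values rest on a spread pooled over the 3 groups and moderated by eBayes across the genes tested. Leaving out an array of any group can therefore change a p-value. The number of 3 arrays per group limits the precision.

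The members and the gene lists were chosen with earlier results of these data known. The text names all 38 members and, of the other lists, the genes past the threshold in any of the 4 comparisons, plus Gm2a, named for its work with Hexa after its values were seen. Promoter windows came from RefSeq (GRCm38.p6). Median shift, quantile normalization, another pseudocount, no filter, the mean of a gene's probe sets, another variance model, only the arrays compared, a block for the replicate number and each array left out in turn were alternatives. The labels give no batch.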

Additional observations from a re-analysis of the deposited data

How the results depend on the processing

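Over the 37 members, the 4 comparisons and their alternatives there were 2479 values: 46 kept a call, 21 lost one, 6 gained one and 2406 were not called either way. Over the 17 other list genes that passed in any comparison, 315 kept a call, 167 lost one and 16 gained one. Of the calls, 0 turned sign. Hexa in db/db+TSF against db/m passed in each alternative. In db/db against db/m the count of members called fell from 1 to 0 with arrays shifted to one median (Hexa adjusted p = 0.0582), with only the arrays compared in the fit (0.108), and without each array (0 to 0). In db/db+TSF against db/m it was 2 in the analysis reported, 1 with quantile normalization, 4 with a pseudocount of 16 and 4 with an intensity trend and robust variance (Ctsb and Psap added), and 1 to 2 with an array left out. With all db/db arrays against db/m it was 2 with a pseudocount of 16 and 2 with the trend (Ctsb added), and 1 to 1 with an array left out. In db/db+TSF against db/db it was 0 throughout. Over all genes tested, the number called also changed with an array left out. It ran from 72 to 197 in db/db against db/m, where it was 187 with all arrays. In db/db+TSF against db/m it ran from 213 to 562, where it was 556 with all arrays. The cause of these changes was not tested.

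A shift to one median moves every gene of an array by the same amount. The autophagy median was then -0.07 in db/db+TSF against db/db and -0.09 in db/db+TSF against db/m. The lysosomal median was -0.05 and -0.05 in these comparisons, and quantile normalization gave -0.02 in the latter. With an array left out it ran from 0 to 0.03 in db/db against db/m, from -0.01 to 0.05 in db/db+TSF against db/db, from -0.02 to 0.03 in db/db+TSF against db/m and from -0.02 to 0.05 with all db/db arrays. The gap of lysosomal over autophagy medians in db/db+TSF against db/m ran from 0.02 to 0.12 with an array left out and was 0 with quantile normalization.

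Deviations of same-numbered arrays from their group means correlated from -0.08 to 0.15. The highest, 0.15 and 0.14, were those of db/db+TSF replicate 2 with db/m and db/db replicate 2. Arrays of different numbers were not correlated for comparison, so these values cannot settle whether the replicate numbers pair the samples. With the number as a replicate block, members called went from 1 to 0 in db/db against db/m and from 2 to 1 in db/db+TSF against db/m, where Ctss was lost (adjusted p = 0.0719), and genes called from 187 to 137 and from 556 to 434. No detection calls or replicate counts beyond 3 arrays a group were used, which limits what a missed threshold can show.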
